A study of Drosophila melanogaster with 2 samples.

Results

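The glutathione S-transferase (GST) genes were examined in whole adult male Drosophila melanogaster, 15 days old, with and without extra miR-305. The members were the 35 of 15906 features whose symbol was Gst followed by a class letter (D, E, O, S, T or Z) and a number, and that held no other symbol. They comprised 11 delta (D), 14 epsilon (E), 3 omega (O), 1 sigma (S), 4 theta (T) and 2 zeta (Z) genes. The control library came from da-Gal4/+ flies, which carry the daughterless driver, active in most cells, and no UAS transgene in their label. The miR-305 library came from da-Gal4/UAS-miR305 flies, in which the same driver switches on a microRNA transgene. Each group had 1 library, so no difference below has a replicate check, and an effect of miR-305 cannot be told apart from one of the insertion, the genetic background or the single preparation. The sources used here do not say how many flies each library holds. The title of the study places the comparison in a search for messenger RNA targets of miR-305 in ageing.

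GSTs are enzymes that join the tripeptide glutathione to electrophilic compounds, which makes these easier to export, and some also reduce peroxides or act as isomerases. The delta and epsilon classes expanded in insects and include enzymes that act on insecticides and on products of lipid peroxidation, whereas the omega, sigma, theta and zeta classes have relatives in vertebrates. In flies, many GSTs are abundant in the midgut, the Malpighian tubules and the fat body, and several are induced through the stress-response factor CncC, the fly relative of Nrf2. Values are FPKM, fragments per kilobase of transcript after scaling to library size, so levels can be compared between genes.

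The mir-305 stem-loop had 546 FPKM with the transgene, and control listed it at 0. FPKM values above 0 were present for 14389 features in control and 14241 in the miR-305 library, and sequencing depth is unknown. All 7 marker lists (tubule, midgut, fat body, muscle, eye, accessory gland and testis) had members above 1 FPKM in both libraries, while single markers were low, among them the tubule receptor gene Lkr (0.69 and 0.99 FPKM) and the fat body gene Fbp1 (0.03 and 0.01). In bulk RNA, fewer cells of a type and less RNA per cell cannot be told apart. The log2 ratio given below compares FPKM + 1 in the miR-305 library with FPKM + 1 in control, so it understates differences at low levels, and folds are ratios of the FPKM values themselves. A member was counted as higher or lower at 2-fold or more on the log2 scale, if its mean FPKM over both libraries was at least 1. Of the 35 members, 33 passed this filter. GstD4 (0.80 FPKM in miR-305 flies, 1.19 in control) and GstD6 (0.50 and 1.10) did not.

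Most GST genes had similar levels in both libraries, and 3 of the members that passed the filter were 2-fold or more apart on the log2 scale. GstE10 and GstD8 were higher in the miR-305 library, and GstD10 was lower. The 2 higher members are 6.06% of the 33, against 2.36% of the 11936 features that passed the same filter. The 1 lower member is 3.03% of the 33, against 1.74% of those features. In either direction, 4.11% of all features passed 2-fold. With the same sum of FPKM in both libraries the members' counts stayed at 2 and 1, against 1.49% and 3.02% of features. Counts this small are a description, and with 1 library per group nothing shows that either share departs from the background. The other 30 members lay within 2-fold. Across the 35 members, log2(FPKM + 1) correlated between the libraries with a Pearson r of 0.97, but the members share both libraries and are not replicates. By rank of FPKM within the family, 27 of 35 members held a position within 2 places of that in the other library.

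**Figure D1:**
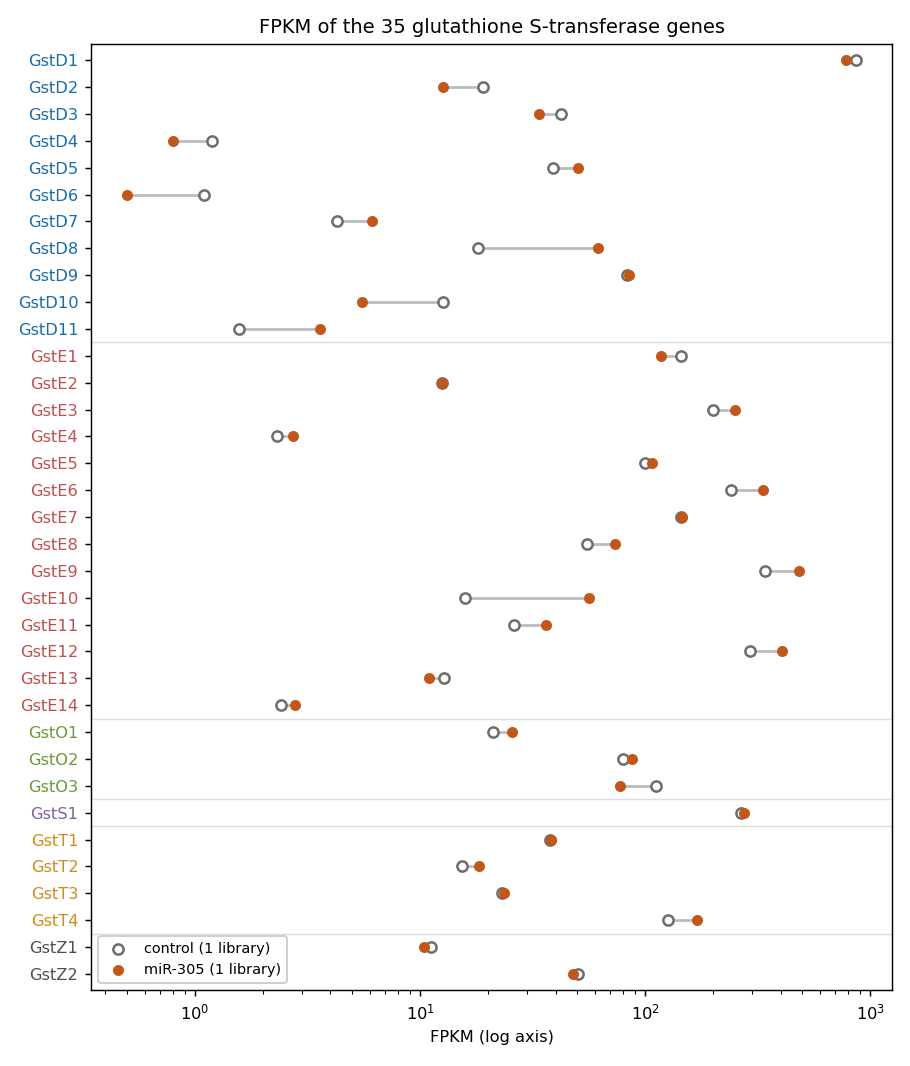
FPKM (log axis) of each of the 35 GST genes in the control library (open grey circles) and the miR-305 library (filled orange circles), grouped by class. The circles lie close together for most genes, and the widest gaps belong to GstE10, GstD8, GstD11, GstD10 and GstD6, the last at about 1 FPKM or less.

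GstE10 had 56.1 FPKM in miR-305 flies and 15.8 FPKM in control, which is 3.54-fold higher and a log2 ratio of 1.76. GstE10 is an epsilon gene with 3 exons on the minus strand at the edge of the epsilon cluster (dm6 chromosome 2R, 18396638 to 18398519). Its 5′ end overlaps that of GstE1, which lies on the plus strand (2R, 18398393 to 18399223), by 20 exonic bases, and the deposited table gives both genes the same locus. GstE1, whose enzyme is known to act on the lipid peroxidation product 4-hydroxynonenal, had 118 FPKM against 145 in control, a log2 ratio of -0.30. The neighbours thus lay on opposite sides of equality. The sources used here do not give the strand setting of the counting, so reads in those shared bases are of uncertain assignment.

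GstD8 had 61.8 FPKM in miR-305 flies and 18.0 FPKM in control, which is 3.42-fold higher and a log2 ratio of 1.72. It is a single-exon delta gene (dm6 chromosome 3R, 12380008 to 12380815, plus strand), and no annotated exon of another gene overlaps it. Within the family it stood at rank 15 of 35 in miR-305 flies and at rank 23 in control. GstD10 was lower, with 5.55 FPKM in miR-305 flies and 12.6 FPKM in control, a log2 ratio of -1.06. It has 2 exons on the minus strand at the other end of the same delta cluster (3R, 12364776 to 12365735). Just outside the threshold stood GstD11, with 3.58 FPKM against 1.56, 2.29-fold higher as a plain ratio and 0.84 as a log2 ratio. On the lower side the next member was GstD2, with 12.7 FPKM against 19.1 and a log2 ratio of -0.55. The ratios of GstE10 and GstD8 exceeded those of over 99% of all features that passed the filter (99.1% and 99.0%). That of GstD10 exceeded 1.55% of them. GstE10 and GstD8 stayed past 2-fold under every pseudocount, filter and scaling tried, whereas GstD10 did not, with log2 ratios of -0.74 at a pseudocount of 5 and -0.99 with equal medians, and it fails a filter at a mean FPKM of 10.

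The delta class did not move as a block. Of its 9 members past the filter, 5 had a log2 ratio above 0 and 4 below, and the median was 0.03, beside -0.03 for all features (-0.25 and -0.27 with the same sum of FPKM in both libraries). GstD1, whose enzyme can break down DDT and whose promoter is widely used as a reporter of CncC activity, was the most abundant GST in both libraries. It had 779 FPKM in miR-305 flies and 865 in control, a log2 ratio of -0.15 (-0.43 with the same sum). GstD9 was second within the class and near equal (84.7 and 82.9 FPKM). GstD3, whose protein lacks the N-terminal stretch with the catalytic serine of other delta enzymes, had 33.9 FPKM against 42.4. GstD5 had 50.4 against 38.9 FPKM, and GstD7 had 6.13 against 4.26. The summed FPKM of the class was 1039 in miR-305 flies and 1087 in control, and GstD1 held most of it in both.

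The 11 delta genes form a single cluster of 20.8 kb on 3R. GstD10, GstD9 and GstD1 lie on the minus strand, and the 8 genes from GstD2 to GstD11 lie on the plus strand. Along the cluster the members with a ratio below -0.25 were GstD10, GstD2, GstD3, GstD4 and GstD6, and those with a ratio above 0.25 were GstD5, GstD7, GstD8 and GstD11. From GstD5 onward every member but GstD6, which failed the filter, was in the latter group, though with the same sum GstD5 and GstD7 had ratios of 0.09 and 0.20. This order was seen after the values were known and is a description of 1 pair of libraries. Beyond GstD10, with 95 bases between, lies Tim17a1, which encodes a relative of a mitochondrial import channel. It had 6.34 FPKM in miR-305 flies and 12.9 in control, a log2 ratio of -0.93, near the -1.06 of GstD10. The genes on either side of this pair were near equal, with ratios of -0.10 for MBD-R2, farther out, and 0.03 for GstD9. CG10035, which lies between GstD8 and GstD11 on the minus strand, had 0.21 FPKM in control and a listed 0 in miR-305 flies. The intronless delta paralogs are similar in sequence, and the sources used here do not say how reads shared among them were assigned.

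**Figure D2:**
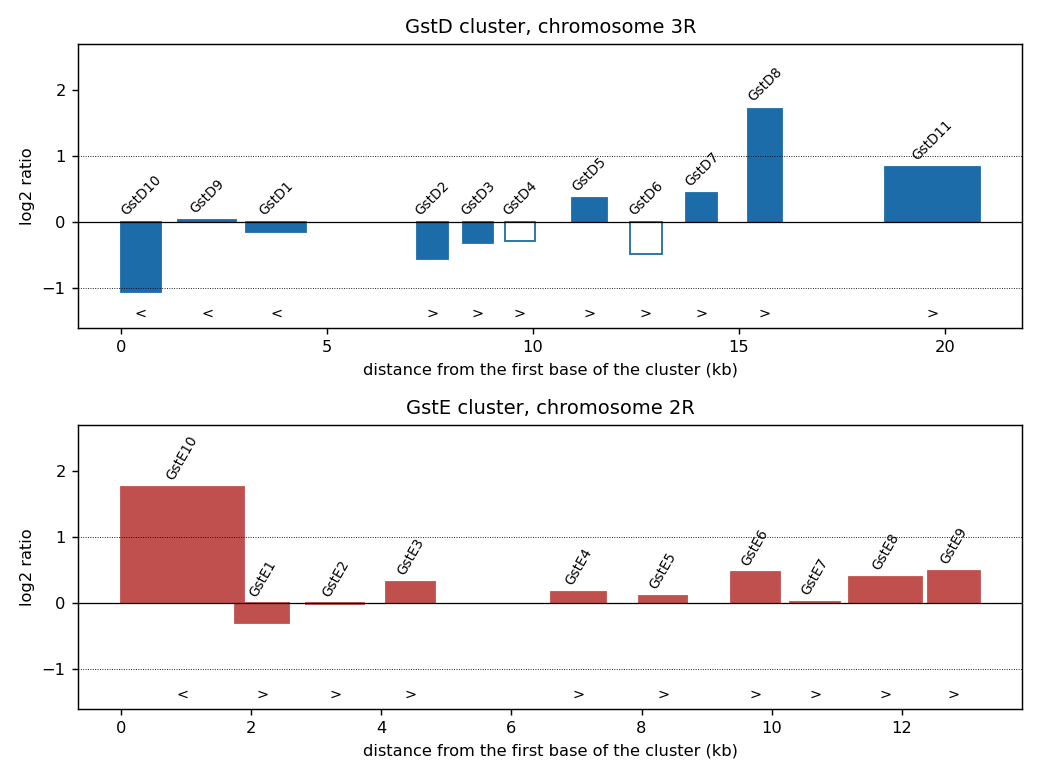
Log2 ratio of each gene along the delta cluster on 3R (top) and the epsilon cluster on 2R (bottom), where the x axis is the distance in kb from the cluster's first base, bar width is gene length, arrowheads give the strand and dotted lines mark 2-fold. Open bars are GstD4 and GstD6, which failed the filter, and the tall bars are GstD8 (1.72) and GstE10 (1.76).

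Epsilon genes had the highest class median under both scalings, and all members but GstE10 lay within 2-fold. Of the 14 members, which all passed the filter, 11 had a log2 ratio above 0, against 46.4% of all features. With the same sum of FPKM this number was 7, against 18.4% of features. The median was 0.25, which is 0.27 above that of all features, and with the same sum it was 0.01, which is 0.28 above. Besides GstE10, 6 members were 1.25-fold to 1.41-fold higher with the deposited scaling. They included the most abundant epsilon genes. GstE9 had 481 FPKM in miR-305 flies and 342 in control. GstE12, which lies apart from the cluster on 2R (24766718 to 24768172), had 407 against 293 FPKM. GstE6 had 334 against 241 FPKM. In the miR-305 library these 3 genes followed GstD1 in the order of levels within the family.

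GstE3 (250.2 against 199.7 FPKM), GstE8 (73.3 against 55.2) and GstE11 (36.2 against 26.04) made up the rest of those 6. In contrast, GstE7 (146 against 144 FPKM) and GstE2 (12.5 in both) were near equal, GstE5 had 108 against 100.1, and GstE13 was slightly lower in the miR-305 library (10.9 against 12.8). GstE4, at 2.73 against 2.31 FPKM, was a low member. GstE14, also called noppera-bo, is needed in the larval prothoracic gland for ecdysone synthesis, and it had 2.79 against 2.41 FPKM. The genes that make ecdysone were low as well, since 0 of 8 listed genes reached a mean of 1 FPKM.

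The core epsilon cluster holds 10 genes in 13.2 kb on 2R (18396638 to 18409835). Its members shared no common ratio, from -0.30 for GstE1 to 0.49 for GstE9, with GstE10 at 1.76. GstE9 shares 40 exonic bases with imd, the adaptor of an immune pathway, on the other strand. Genes next to the cluster were close to equal, with log2 ratios of 0.14 for the chitinase-like growth factor gene Idgf5, 0.12 for imd and 0.15 for Dp1. Of the 14 epsilon genes 9 have a single exon in their longest transcript, as do 7 of the 11 delta genes and 0 of the other 10 members.

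With the deposited scaling, the epsilon class had the largest difference in summed message among the classes, and with the same sum of FPKM the delta class had it. Summed over all 35 genes, FPKM was 3851 in miR-305 flies and 3423 in control, a ratio of 1.13. The difference of 428 FPKM was smaller than that of the epsilon class alone (447), of which GstE6, GstE9 and GstE12 together supplied 346. The theta class added 48.7 and the sigma gene 6.33, whereas the delta, omega and zeta sums were lower in the miR-305 library by the deposited scaling. Epsilon genes made up 52.9% of GST FPKM in miR-305 flies and 46.5% in control, and delta genes 27.0% and 31.8%. These shares within the family do not depend on how the libraries are scaled. As a share of all FPKM the family went the other way, at 0.327% in miR-305 flies and 0.354% in control, as the FPKM of all features summed to 1.22 times as much in the miR-305 library. With the same sum, total GST FPKM was 3166 in miR-305 flies against 3423 in control, a difference of -257. There the delta sum was 854, a difference of -233, whereas the epsilon sum was 1675, a difference of 84.3. GstD1, which held most of the delta sum, had a log2 ratio of -0.43 there. The delta median was 0.02 above that of all features, so the delta difference in sums is not one of the class as a whole. The order of the libraries for total GST message, and the class that differed most, therefore depend on the scaling.

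**Figure D3:**
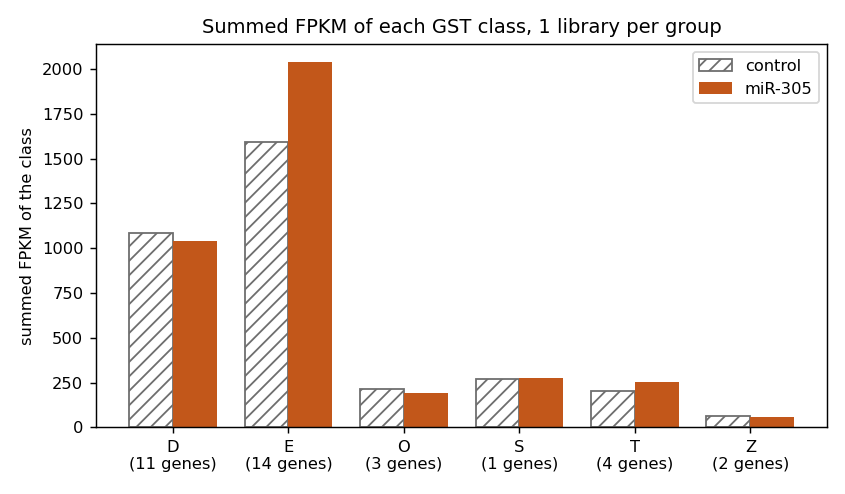
Summed FPKM of the members of each class in the control library (hatched bars) and the miR-305 library (orange bars), with the number of genes under each letter. With this deposited scaling the epsilon bars (1591 and 2038) differ most and the delta bars (1087 and 1039) are close, whereas with the same sum of FPKM the miR-305 values are 1675 for epsilon and 854 for delta.

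The omega genes, whose enzymes use a catalytic cysteine and act as thiol transferases and dehydroascorbate reductases, lay on both sides of equality. GstO3 (3L, 8518885 to 8520295) had 77.5 FPKM in miR-305 flies and 111.6 in control, a log2 ratio of -0.52. It was the only omega gene below 0. GstO2 had 87.1 against 79.7 FPKM and GstO1 had 25.7 against 21.2, and with the same sum of FPKM their ratios were -0.15 and -0.003. The class median of 0.13 was -0.15 with the same sum.

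The gene sepia (se), also of the omega class but outside the symbol rule, lies inside this cluster between GstO3 and GstO2. Its enzyme makes a precursor of the red drosopterin eye pigments. It had 5.83 FPKM in miR-305 flies and 12.8 in control, a log2 ratio of -1.02. Its exons share 61 bases with those of GstO2 on the opposite strand, and both share a deposited locus, so the shared bases are of uncertain assignment. Of the other pteridine pathway genes listed, 0 of 5 were past 2-fold, against 4.11% of all features. Their ratios ran from -0.03 for purple (pr) to 0.22 for rosy (ry). Of 4 eye markers 1 had a ratio above 0, their median was -0.28, and their summed FPKM was 2859.7 in miR-305 flies and 2426 in control, led by the rhodopsin gene ninaE. Their part in the ratio of se was not tested.

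The single sigma gene, GstS1, was near equal, with 274 FPKM in miR-305 flies and 268 in control. Its enzyme conjugates 4-hydroxynonenal and is abundant in flight muscle. Of 5 muscle markers 3 had a ratio above 0 (1 with the same sum), and their summed FPKM was 1119.8 and 1113. The flight muscle actin gene Act88F stood apart from the other four, with 29.6 FPKM against 14.8, a log2 ratio of 0.96. The part of muscle in the GstS1 ratio was not tested. Among the theta genes, an old class shared with vertebrates, GstT4 on the X chromosome (13404749 to 13409323) had 171 FPKM against 126, a log2 ratio of 0.43. GstT1 (38.3 against 37.7 FPKM) and GstT3 (23.7 against 23.2) were equal to within 2%, and GstT2, which shares 223 exonic bases with CG12926, had 18.3 against 15.4 FPKM. The theta median was 0.13, and -0.14 with the same sum. Both zeta genes were slightly lower under either scaling, GstZ1 at 10.4 against 11.2 FPKM and GstZ2 at 47.8 against 50.4. Zeta enzymes are maleylacetoacetate isomerases, which act late in tyrosine breakdown. The other 5 genes of that pathway had ratios from -0.08 for Hpd to 0.21 for Tat. Of these, 0 were past 2-fold, against 4.11% of all features.

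**Figure D4:**
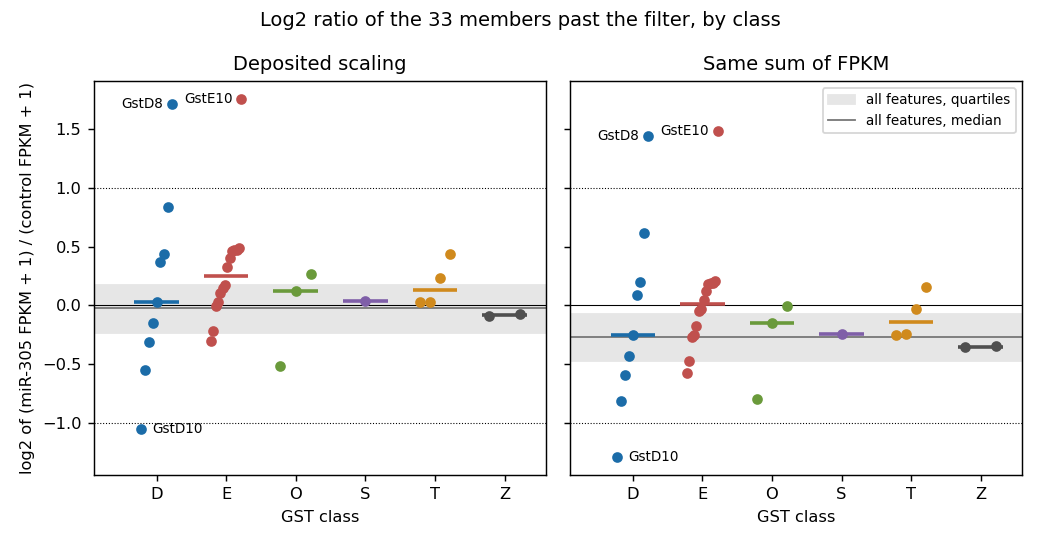
Log2 ratio of the 33 members that passed the filter (points) and the median of each class (coloured bars), with the deposited scaling (left) and with both libraries at the same sum of FPKM (right). The grey band and line are the quartiles and median of all 11936 features, and dotted lines mark 2-fold. GstE10, GstD8 and GstD10 lie past 2-fold in both panels, and only the epsilon median lies above the grey band in both.

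Over the whole family the median log2 ratio was 0.13, beside -0.03 for all features, and the quartiles of the 33 members were -0.08 and 0.43, beside -0.24 and 0.18. Of the 33, 23 (69.7%) had a ratio above 0, against 46.4% of all features. With the same sum of FPKM, the family median was -0.15 beside -0.27, and 12 members (36.4%) lay above 0 against 18.4% of features. The median of the family was thus above that of all features under both scalings, but its sign flipped with the same sum. With equal medians or equal upper quartiles it stayed positive, at 0.20 and 0.14. Members of 1 family can share a tissue and move together between a pair of libraries, so these figures are no measure of chance between flies.

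Genes that supply and use glutathione showed small differences, as did most features. For glutathione synthesis and turnover, 6 of 8 listed genes could be matched to a feature of their own. Of these 6, 0 were past 2-fold, against 4.11% of all features, and the median was 0.12 (-0.12 with the same sum). Gclc, the catalytic subunit of the rate-limiting ligase, had 54.7 FPKM against 51.4, and its modifier subunit Gclm had 58.6 against 65.1. The glutathione-degrading transpeptidase gene Ggt-1 had 57.3 against 48.3 FPKM. Among thioredoxin, glutaredoxin and peroxidase genes, 0 of 8 were past 2-fold and 4 had a ratio above 0, against 46.4% of all features. Their median was 0.06 (-0.23 with the same sum), beside -0.03 (-0.27) for all features. TrxR-1, which reduces thioredoxin, the reductant of glutathione disulfide in flies, had 200.3 against 146 FPKM, and its substrate gene Trx-2 had 255 against 202. The glutathione peroxidase-like gene PHGPx had 298 against 245. The glutaredoxin gene Grx1t was on the other side, with 29.6 against 37.8 FPKM and a log2 ratio of -0.34.

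Most regulators of detoxification genes lay slightly below equality in message with the deposited scaling, and most features also lay below it. The regulators had a median log2 ratio of -0.10 (-0.35 with the same sum), beside -0.03 (-0.27) for all features. The gene cnc, which encodes CncC, had 44.3 FPKM in miR-305 flies and 45.7 in control, and its partner maf-S had 86.5 against 99.8. Keap1, the inhibitor of CncC, had 6.79 against 5.26 FPKM, a log2 ratio of 0.31, and the xenobiotic receptor gene Hr96 had 9.97 against 10.7. Of the regulators that passed the filter, 0 of 5 were past 2-fold, against 4.11% of all features. These levels say nothing of CncC protein or its activity.

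Other conjugation and export genes included 2 of 19 past 2-fold, both higher in the miR-305 library, against 2.36% of all features. With the same sum 1 was past 2-fold, against 1.49% of features. The median was 0.09, and -0.13 with the same sum. Ugt37b1, a UDP-glycosyltransferase gene, had 30.7 FPKM against 11.7, a log2 ratio of 1.31. Mdr50, an ABC transporter gene, had 21.2 against 8.66 FPKM, a log2 ratio of 1.20 that was 0.93 with the same sum. The epoxide hydrolase gene Jheh2 had 264 against 177 FPKM, a log2 ratio of 0.57. The microsomal GST gene Mgstl, which is unrelated to the cytosolic classes in structure, had 139 against 94.5 FPKM, a log2 ratio of 0.55. Further genes with a GST domain were near equal, gfzf at 10.1 against 9.91 FPKM and the translation factor gene eEF1gamma at 513 against 548.

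Among the tissues rich in GSTs, only the midgut had all its markers on the same side of equality with the deposited scaling. All 7 midgut markers had a ratio above 0 (5 with the same sum), against 46.4% of all features (18.4%). Their ratios ran from 0.14 to the 1.91 of betaTry, with a median of 0.61 (0.33 with the same sum). Their summed FPKM was 7101 in miR-305 flies and 4865 in control. Of 3 tubule markers past the filter, 2 had a ratio above 0 under either scaling. The summed FPKM of the 4 matched was 71.0 against 66.6, mostly from Alp4 (44.2 against 45.8). The ratio of these sums, 1.07, turns below 1 with the same sum, as does any ratio under 1.22. Of 3 fat body markers past the filter, 2 had a ratio above 0 (1 with the same sum), with summed FPKM of 1764 and 1324, a difference that came mainly from Lsp2 (514 against 159). Testis markers were lower in 4 of 4 cases under either scaling, with summed FPKM of 1123 and 1953. Accessory gland markers were higher in 3 of 3 under either scaling, with 22337 and 12221, almost all from SP (21688 and 11863). The part of these tissues in the GST ratios was not tested.

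**Figure D5:**
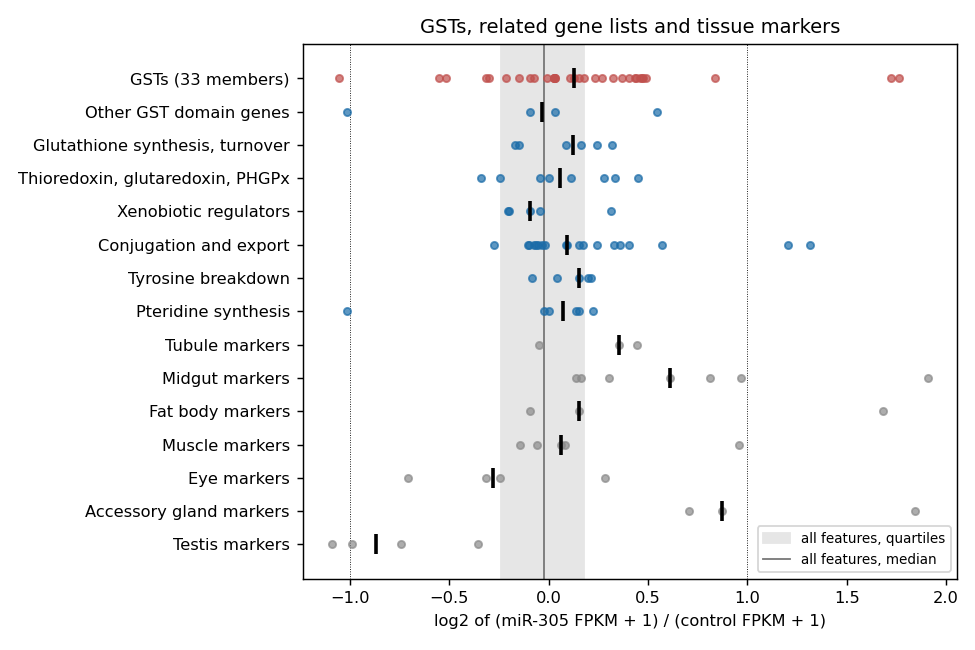
Log2 ratio of the 33 GST members (red), of related gene lists (blue) and of tissue markers (grey), 1 point per gene with a mean FPKM of at least 1, with the list median as a black bar. The grey band and line are the quartiles and median of all features. The GST points spread from -1.06 to 1.76, and the midgut and accessory gland markers lie farther right than the GST median of 0.13.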

How the data were processed

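Per the labels' protocols, RNA of whole males was extracted with Trizol and sequenced as 51-bp single-end reads after a directional kit. Per the submitters' processing notes, reads were handled with Cufflinks 2.2.1, TopHat2 2.0.13 and FastQC 0.11.5 on dm6. The deposited table gives 1 FPKM value per feature and library, per the file headers. Depth is unknown, no counting interval is given, and with 1 library per group no test, standard error or p-value was computed. Gene positions, exons and strands are those of Ensembl 115 on the same assembly, 1-based, and all 35 members matched by symbol and overlap their deposited locus. Features with several symbols (634) entered no list.

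The members and gene lists were chosen with earlier results of these data known. Named were all members, the listed GST-related genes and, from each other list, up to 4 members past the filter with the largest absolute ratio. Gclc, Gclm, cnc, pr, Tim17a1, CG10035, CG12926 and the genes beside the clusters were chosen after seeing their values. Lkr and Fbp1, which failed the filter, were named for their low values. Other pseudocounts (0.1 and 5), filters and scalings were tried. Python 3.11.15, numpy 2.4.6, pandas 2.3.3 and matplotlib 3.10.9 were used, and the 2-fold rule was tested on simulated data. Promoter motifs, miR-305 seed sites and protein comparisons were planned but not analysed here, as no sequence was used.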

Additional observations from a re-analysis of the deposited data

How the results depend on the processing

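GstE10 and GstD8 were past 2-fold under each alternative that kept them, with log2 ratios of 1.48 to 1.84 and 1.44 to 1.80. The count of higher members was 3 with a pseudocount of 0.1, where GstD11 joined (1.14), and 1 without the 7 members that share exon bases with another gene, GstE10 among them. The count of lower members was 0 with a pseudocount of 5, a mean FPKM of at least 10 or equal medians, and 1 otherwise. The same sum of FPKM shifted the median of all features by -0.25. There the family median was -0.15, and the class medians were -0.25 (D), 0.0080 (E), -0.15 (O), -0.25 (S), -0.14 (T) and -0.35 (Z). Rescaling to the same sum without the 20 most abundant features, an alternative chosen after seeing the data, gave -0.017 for the family and -0.11 (D), 0.12 (E), -0.017 (O), -0.11 (S), -0.0075 (T) and -0.22 (Z), with all features shifted by -0.13. Equal medians and equal upper quartiles gave 0.20 and 0.14 for the family and moved no class median by more than 0.1. Without a filter the D median was -0.15, and for genes averaging 10 FPKM or more the E median was 0.36. Without the overlapping members, also chosen after seeing the data, the O and T medians were -0.13 and 0.027. The family median lay above that of all features by 0.06 to 0.16 under all alternatives, including 0.13 against protein-coding genes of like transcript length. With the same sum, 7 of the 14 related and marker list medians went from positive to negative. They were glutathione synthesis (-0.12), thioredoxin and glutaredoxin genes (-0.23), conjugation and export (-0.13), tyrosine breakdown (-0.13), pteridine genes (-0.21), fat body markers (-0.13) and muscle markers (-0.22). With the sum without the 20 features, fat body markers (0.0067) and tyrosine breakdown (0.0099) stayed above 0, and the others of these lists lay below, glutathione synthesis at -0.00051. A median was taken as moved beyond 0.1. No paired analysis was possible because each group has 1 library. Differences within the spread between flies cannot be recognised without replicates.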
